A study of Rattus norvegicus with 13 samples.

Results

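Glypicans and syndecans are the families of cell surface proteoglycans that carry heparan sulfate, and they were followed here in the posterior ventricular zone (VZ) of newborn rats. The genes were chosen by name, *Gpc1* to *Gpc6* and *Sdc1* to *Sdc4*, and the rule kept the row with the highest mean where a name had several. All 10 genes were found, each with 1 row, among the 13129 named genes of the table, so that no row had to be chosen. *Gpc4* and *Sdc2* had been singled out as lower in the original comparison of these same pups, by DESeq2 at a false discovery rate of at most 0.05. That comparison used another test than the one used here, and the families were taken up with its result known. Their differences between groups are therefore a description and not independent evidence, and their p-values are given only to place them among all rows.

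Long Evans rat dams received propylthiouracil (PTU), an inhibitor of thyroid hormone synthesis, in the drinking water at 3 ppm, and control dams received water without it. On postnatal day (PN) 2, 1 male pup per litter was taken from 7 control and 6 PTU exposed litters, and the labels name no genetic change in either group. The ventricular epithelium of the posterior telencephalon, recognised by its pseudostratified appearance, was collected from both hemispheres by laser capture, and total RNA was sequenced after ribosomal RNA depletion. The comparison asked which transcripts of this layer differ after developmental exposure to PTU.

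A glypican is held on the outer face of the membrane by a glycosylphosphatidylinositol anchor, whereas a syndecan spans the membrane and has a short cytoplasmic tail that binds scaffold proteins. Their heparan sulfate chains are long sulfated sugars that bind FGFs, Wnts, BMPs, hedgehog proteins, midkine and pleiotrophin, and so present these ligands to their receptors. In the developing forebrain both families are known from progenitor proliferation, axon guidance and synapse formation.

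Values are normalized counts, that is, estimated reads of a row divided by a size factor of the pup, and they are not divided by transcript length. Levels were therefore compared between pups for each gene and not between genes. The reads behind a table column were estimated at 22293200 to 44386439 (control median 35214943, PTU median 34264909.5), and 1 read was worth 0.793 to 1.36 normalized counts. The 3 highest rows took 32.4 to 60.1% of the estimated reads of control pups (median 50.9%) and 23.9 to 57.0% of those of PTU exposed pups (median 35.8%). The lowest value of any of the 10 genes rested on an estimated 134 reads (*Gpc3*), for which counting error alone gives a coefficient of variation of 8.64%, below the spread between pups of that gene. The transcripts that define the layer were present in every pup, *Sox2* with a mean of 7107 normalized counts in control and 6701 in PTU exposed pups and *Pax6* with 3150 and 2372.

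Of the 10 genes, 6 had a lower and 4 a higher mean log2 value in the PTU group (49.3% of all rows were lower). In limma, which tested log2(normalized count + 1) of all rows whose mean reached 10, 0 of 10 had a Benjamini-Hochberg adjusted p of at most 0.05, and neither did any other row (0% of 14606). An unadjusted p under 0.05 was found for 4 lower genes (*Gpc4*, *Sdc2*, *Sdc4* and *Gpc6*) and for 1 higher gene (*Gpc2*), beside 8.20% of all rows that were lower and 8.11% that were higher at that level (1198 and 1185 rows, 2383 in all). With voom on the estimated reads 0 rows passed the adjusted threshold, and 1165 lower and 1230 higher rows had an unadjusted p under 0.05. The groups did not overlap for 1 gene, *Gpc4*, as for 0.260% of all rows in that direction. Scaling to an equal total for each pup moved the median of all rows by 0.20 on the log2 scale and the rows at an unadjusted p under 0.05 to 81 lower and 1584 higher. *Gpc4* was then the 1 lower gene at that level (log2 fold change -0.57), with *Sdc2* at -0.28, *Sdc4* at -0.24 and *Gpc6* at -0.12 (unadjusted p = 0.227, 0.350 and 0.619 in limma), and *Gpc5* (0.06) and *Sdc1* (0.02) turned from lower to higher. With the 3 highest rows left out of that total, 4 genes were again lower at that level, beside 7.69% of all rows. These were *Gpc4* (-0.77), *Sdc2* (-0.48), *Sdc4* (-0.43) and *Gpc6* (-0.31). On the deposited scaling the median log2 fold change was -0.04 for the 6 glypicans and -0.31 for the 4 syndecans, beside 0.00 for all rows tested.

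**Figure D1:**
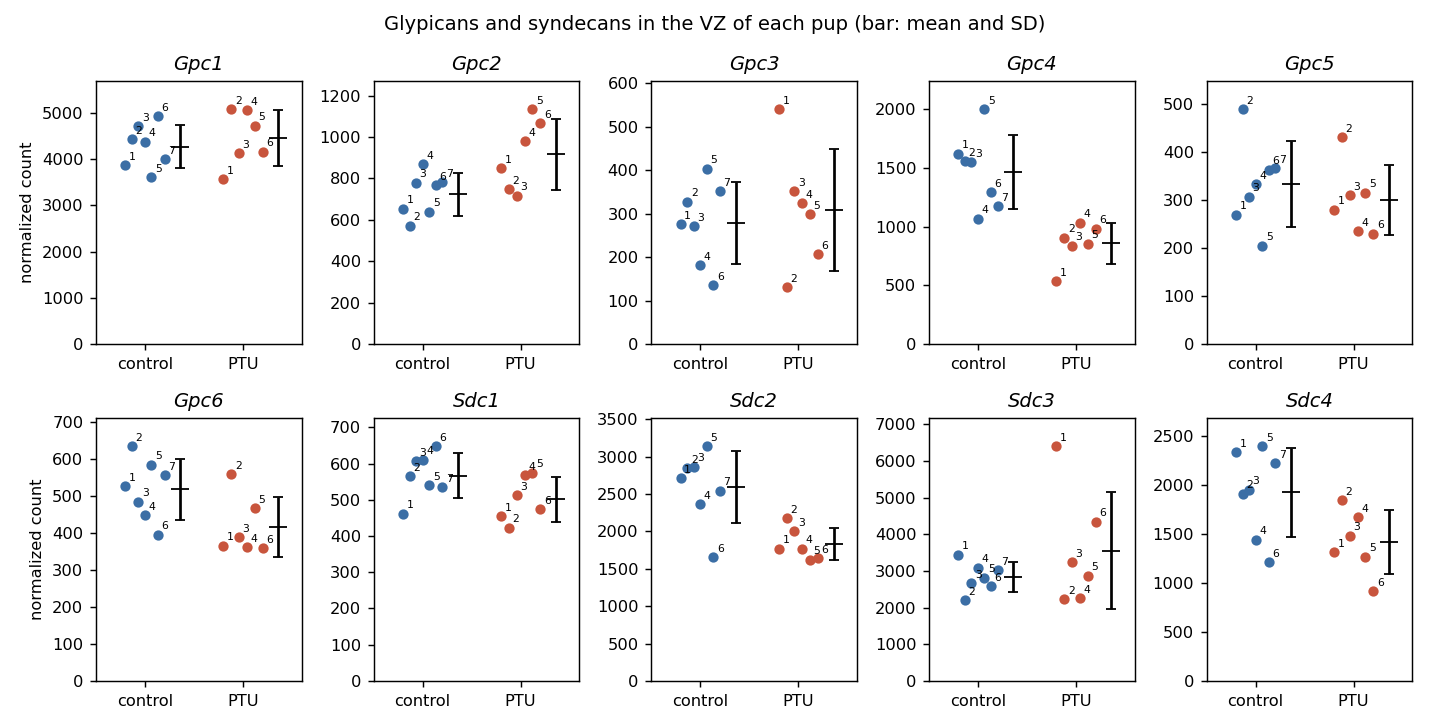
Normalized counts of the 6 glypicans and 4 syndecans in the VZ of each pup on PN2. Each point is 1 pup with its replicate number (blue, 7 control pups; red, 6 PTU exposed pups), the bars give the mean and SD, and the axes start at 0. All 6 PTU exposed pups lay below all 7 control pups for *Gpc4*, at 537 to 1035 against 1066 to 2000, and the groups overlapped for the other 9 genes.

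*Gpc4* (ENSRNOT00000003282, chromosome X), a glypican of neural progenitors that in the mature brain is also secreted by astrocytes, showed the clearest separation of the groups. Control pups had between 1066 and 2000 normalized counts with a median of 1549, and PTU exposed pups had between 537 and 1035 with a median of 880. The highest PTU exposed pup (pup 4) thus lay just under the lowest control pup (also number 4), and the lowest value came from PTU pup 1. The means were 1466 ± 316 (SD, n = 7) and 859 ± 175 (SD, n = 6), a difference of -41.5%. The log2 fold change was -0.77 (95% CI -1.10 to -0.44, SE 0.16, adjusted p = 0.122 in limma), which ranked 14th among all rows by p. With 1 pup left out at a time, the adjusted p in limma was 0.103 to 0.261 in 12 of 13 fits. It was 0.0391 without PTU pup 2, where 179 of 14606 rows passed.

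*Sdc2* (ENSRNOT00000007255, chromosome 7), the syndecan that carries heparan sulfate in many mesenchymal and neural cells and clusters in dendritic spines of neurons, was lower in all 6 PTU exposed pups than the control mean. Control pups ranged from 1658 to 3143 normalized counts (median 2711) and PTU exposed pups from 1623 to 2174 (median 1769). The overlap came from 1 animal, since control pup 6 had 1658 and the next lowest control pup had 2364, above every PTU exposed pup. The means were 2590 ± 480 (SD, n = 7) and 1829 ± 217 (SD, n = 6), a difference of -28.5%, and the log2 fold change was -0.48 (95% CI -0.75 to -0.22, SE 0.13, adjusted p = 0.134 in limma). With 1 pup left out at a time, the adjusted p in limma was 0.0527 to 0.267 in 12 of 13 fits and 0.0489 (log2 fold change -0.59) without control pup 6, the pup that makes the groups overlap. That control pup was also the lowest control for *Sdc4* and for *Gpc6*.

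*Sdc4* (ENSRNOT00000019386, chromosome 3), a syndecan of focal adhesions that binds protein kinase C alpha, had 1211 to 2395 normalized counts in controls (median 1949) and 913 to 1840 in the PTU group (median 1398). All 6 PTU exposed pups lay below the control mean, yet only PTU pup 6 lay below every control. It differed by -0.44 on the log2 scale (95% CI -0.80 to -0.07, SE 0.17), with an unadjusted p of 0.0212 and an adjusted p of 0.234 in limma. The exact permutation test (two-sided, over 1716 regroupings of the pups) gave an unadjusted p of 0.0548, so the call at 0.05 depended on the test, and in limma it was 0.0647 without PTU pup 6.

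*Gpc6* (ENSRNOT00000119031, chromosome 15), the glypican closest to *Gpc4* in sequence and like it made by astrocytes in the mature brain, ranged from 395 to 634 normalized counts in controls (median 526) and from 359 to 559 in the PTU group (median 376). PTU exposed pups 1, 3, 4 and 6 lay below every control, whereas PTU pup 2 had 559, above the control median. This gave a log2 fold change of -0.32 (95% CI -0.61 to -0.03, SE 0.14, adjusted p = 0.275 in limma; exact permutation p = 0.0437, unadjusted). The unadjusted p in limma was 0.0349, and it was 0.0519 to 0.0766 in 8 of the 13 fits with 1 pup left out.

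*Gpc2* (ENSRNOT00000001849, chromosome 12), also called cerebroglycan, is a glypican of newborn neurons that are migrating or growing axons, and it was the gene with a higher level and an unadjusted p under 0.05. Control pups ranged from 573 to 870 normalized counts (median 768) and PTU exposed pups from 716 to 1134 (median 914). PTU pups 4, 5 and 6 lay above every control, and the other 3 lay within the control range. On the log2 scale the difference was 0.33 (95% CI 0.06 to 0.60, SE 0.13, adjusted p = 0.230 in limma; exact permutation p = 0.0356, unadjusted). The unadjusted p in limma was 0.020, and it was 0.0594 without PTU pup 5, 0.0522 without PTU pup 6 and 0.0997 with a choroid plexus marker score as a covariate.

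*Sdc3*, the neuronal syndecan that binds pleiotrophin, differed more among PTU exposed pups than between the groups. Control pups ranged from 2209 to 3440 normalized counts (median 2816), while PTU exposed pups ranged from 2232 to 6408 (median 3047). PTU pup 1 had 6408 and PTU pup 6 had 4342, and the other 4 lay within the control range. The coefficient of variation was 14.1% in control and 45.0% among PTU exposed pups. The log2 fold change of 0.23 (95% CI -0.18 to 0.65, SE 0.20, adjusted p = 0.570 in limma) was 0.04 without PTU pup 1.

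*Gpc3*, an inhibitor of hedgehog signaling during growth, was the most variable of the glypicans. It ranged from 136 to 404 normalized counts in controls (median 276) and from 131 to 540 in the PTU group (median 311), with coefficients of variation of 33.9 and 45.3%. PTU pup 1 was the highest and PTU pup 2 the lowest of all 13 pups. The log2 fold change of 0.10 had an interval from -0.52 to 0.72 (adjusted p = 0.897 in limma), so a difference of the size seen for *Sdc4* in either direction lay within it. *Gpc5*, the neighbour of *Gpc6* in the genome, had 205 to 490 normalized counts in controls (median 334) and 230 to 431 in the PTU group (median 296), with coefficients of variation of 26.7 and 24.4%. Its log2 fold change was -0.14 (95% CI -0.54 to 0.26, adjusted p = 0.747 in limma). With 1 pup left out it ran from -0.25 (without PTU pup 2) to -0.04 (without control pup 2).

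*Gpc1*, a glypican of neurons and of many other cells, had the narrowest interval of all 10 genes. Control pups ranged from 3599 to 4919 normalized counts (median 4370) and PTU exposed pups from 3557 to 5073 (median 4435). Its log2 fold change was 0.05 (95% CI -0.15 to 0.26, adjusted p = 0.815 in limma), and the interval does not reach the size of the difference seen for *Gpc2*. *Sdc1*, best known as the syndecan of epithelia and plasma cells, ranged from 461 to 649 normalized counts in controls (median 565) and from 423 to 575 in the PTU group (median 493), with a log2 fold change of -0.18 (95% CI -0.41 to 0.06, adjusted p = 0.427 in limma; exact permutation p = 0.0833, unadjusted).

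The promoters of the genes with an unadjusted p under 0.05 were read from RefSeq (GRCr8), which has an entry for 7 of the 10 genes and thus for *Gpc4*, *Sdc4* and *Gpc2* among these 5. They are shown for the 2 genes with lower and the 1 with higher levels. The sequences were not aligned, and whether their letters bear on the direction was not tested. Each is the 250 bases before the annotated start on the minus strand, written 5′ to 3′ along the gene, at chrX:136676058-136676307 for *Gpc4*, chr3:173592924-173593173 for *Sdc4* and chr12:22397823-22398072 for *Gpc2*. Capitals mark GGGCGG, the core bound by Sp1 family factors, and CCAAT on either strand. AGGTCA, the core motif bound by thyroid hormone receptors and by many other nuclear receptors, was searched on both strands as well.
Gpc4: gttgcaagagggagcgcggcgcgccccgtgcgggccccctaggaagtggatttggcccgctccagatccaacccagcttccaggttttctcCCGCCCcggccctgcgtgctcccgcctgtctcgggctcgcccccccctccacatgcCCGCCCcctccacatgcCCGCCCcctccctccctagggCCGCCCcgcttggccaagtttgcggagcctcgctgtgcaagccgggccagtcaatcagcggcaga
Sdc4: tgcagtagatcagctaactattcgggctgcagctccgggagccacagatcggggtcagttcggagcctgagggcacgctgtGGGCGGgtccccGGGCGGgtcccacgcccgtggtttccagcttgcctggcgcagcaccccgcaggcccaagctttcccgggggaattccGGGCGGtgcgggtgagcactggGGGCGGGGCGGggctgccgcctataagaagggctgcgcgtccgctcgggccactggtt
Gpc2: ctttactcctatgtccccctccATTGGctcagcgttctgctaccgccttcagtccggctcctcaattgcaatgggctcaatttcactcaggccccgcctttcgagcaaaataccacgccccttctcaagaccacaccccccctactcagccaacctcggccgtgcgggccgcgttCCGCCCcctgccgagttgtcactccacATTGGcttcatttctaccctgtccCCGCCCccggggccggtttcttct

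GGGCGG was found 4 times before *Gpc4*, 5 times before *Sdc4*, where 1 pair of matches overlaps by 1 base, and 2 times before *Gpc2*. CCAAT was found 2 times before *Gpc2* and in neither of the others. Over the 7 entries, GGGCGG was present in 7 and CCAAT in 2 (*Gpc2* and *Sdc1*), and AGGTCA was present in 0. Among all 33469 promoter windows of the same length, 30.5% held GGGCGG, 34.0% held CCAAT and 14.1% held AGGTCA. The GC content of the 7 windows was 60.8 to 80.0%, above the median of 51.2% over all windows. A match describes these letters only, and no match says that they are not in this window.

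Ratios of related genes within a pup do not depend on the scaling of that pup. 7 pairs were compared by subfamily or by place in the genome, and none passed the threshold after adjustment over the 7 (exact permutation tests, two-sided). The log2 ratio of *Gpc4* to *Gpc6* was 1.49 ± 0.27 (SD, n = 7) in control and 1.03 ± 0.39 (SD, n = 6) in the PTU group, a difference of -0.45 (exact permutation p = 0.0379, adjusted p = 0.151). *Gpc4* and *Gpc3* lie near each other on chromosome X, with 2 protein-coding entries between them in RefSeq. Their log2 ratio was 2.45 ± 0.45 (SD, n = 7) and 1.58 ± 0.95 (SD, n = 6), a difference of -0.87 (exact permutation p = 0.0431, adjusted p = 0.151). In PTU pup 1 the ratio was as low as -0.01, and in PTU pup 2 it was as high as 2.78, within the control range. With 1 pup left out at a time, the adjusted p was 0.106 to 0.362 in 12 of 13 exact permutation tests, with a difference of -0.56 without PTU pup 1. It was 0.0265 without PTU pup 2 (difference -1.11), a pup that lies within the control range. *Gpc5* and *Gpc6* lie on chromosome 15, also with 2 protein-coding entries between them, and their ratio differed by -0.18 (exact permutation p = 0.414, adjusted p = 0.579).

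The ratio of *Sdc2* to *Sdc4*, the syndecans of 1 subfamily, was close in the groups, at 0.44 ± 0.19 (SD, n = 7) and 0.40 ± 0.25 (SD, n = 6) on the log2 scale, a difference of -0.05 (exact permutation p = 0.716, adjusted p = 0.716). For *Sdc1* to *Sdc3*, the other subfamily, it was -2.31 ± 0.33 and -2.73 ± 0.67 (SD), with a difference of -0.41 (adjusted p = 0.313, exact permutation test). *Gpc1* to *Gpc2* gave a difference of -0.28 (adjusted p = 0.200) and *Gpc3* to *Gpc5* a difference of 0.24 (adjusted p = 0.713), both in exact permutation tests.

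**Figure D2:**
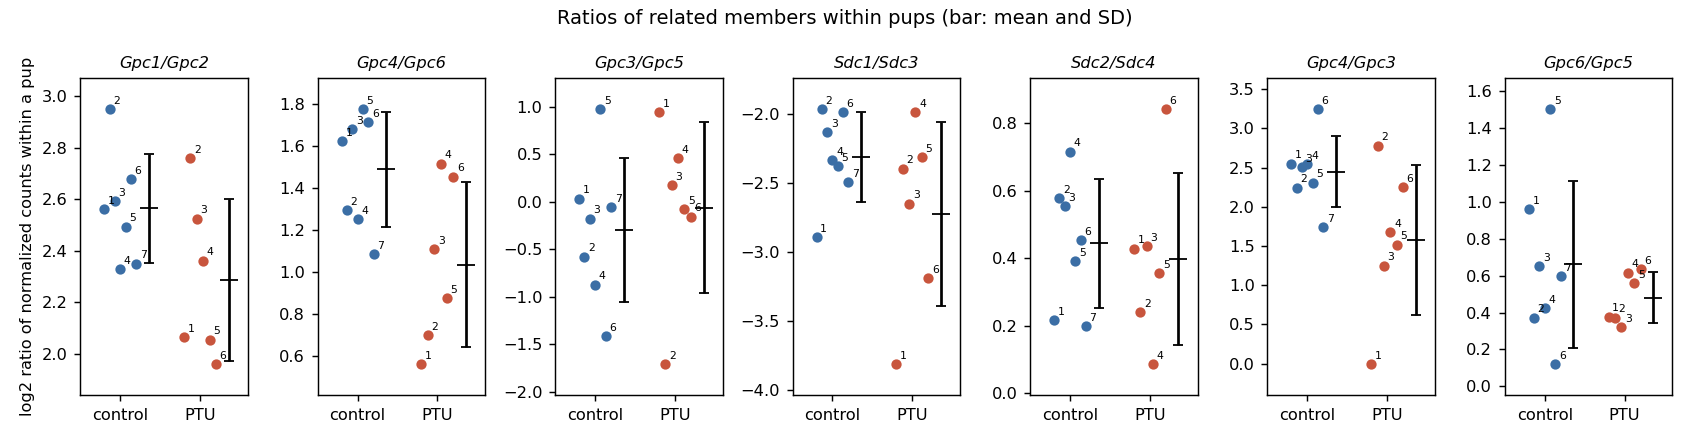
The log2 ratio of normalized counts of 2 related genes within each pup, for 7 pairs. Points are single pups with their replicate number (blue, control; red, PTU exposed), and bars give the mean and SD. The groups overlap in all 7 pairs, and PTU pup 1 has the lowest *Gpc4*/*Gpc3* ratio, -0.01.

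The genes whose levels over the 13 pups were most like those of *Gpc4* were found by the root mean square distance between centred log2 profiles, over 11025 genes with a mean of at least 100. They were *Tshr*, the thyrotropin receptor (distance 0.246), *Tfap2c*, a transcription factor of cortical progenitors (0.247), *Gid4*, a substrate receptor of a ubiquitin ligase (0.253), and *Prdm16*, a transcriptional regulator of radial glia (0.256), beside a spread of 0.486 for *Gpc4* itself. *Prdm16* had 3147 ± 323 normalized counts (SD, n = 7) in control and 2215 ± 470 (SD, n = 6) in the PTU group. A gene chosen for its likeness to *Gpc4* shares that difference by the choice, so its values are a description. Of the other glypicans and syndecans, *Sdc2* came 132nd in that order, *Gpc6* 442nd and *Sdc4* 659th, while *Gpc3*, the neighbour on chromosome X, came 10267th.

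For *Sdc2* (spread 0.334) the closest genes were *Iqgap2*, a scaffold of the actin cytoskeleton (distance 0.116), *Ikbip* (0.118), *Poglut3*, an O-glucosyltransferase (0.132), and *Plekha7*, a protein of adherens junctions (0.137). *Plekha7* had 930 ± 163 normalized counts (SD, n = 7) in control and 669 ± 81.3 (SD, n = 6) in the PTU group, likewise a description. *Gpc6* came 76th and *Sdc4* 99th, closer to *Sdc2* than *Gpc4* did at 2043rd, and *Sdc3* came 9931st. These distances are a description over 13 pups that share the layer and the scaling.

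The enzymes that build heparan sulfate were read from the same test. The 7 genes of the linkage list encode enzymes that add the first sugars to the core protein or act on these sugars. Of these genes 5 were lower and 2 higher after exposure. An unadjusted p under 0.05 was found for 3 lower genes (8.20% of all rows), and 0 passed the adjusted threshold (0% of all rows). *Pxylp1*, a phosphatase that acts on the first xylose, had 1280 ± 186 normalized counts (SD, n = 7) in control and 966 ± 120 (SD, n = 6) in the PTU group (log2 fold change -0.40, adjusted p = 0.134 in limma). *Xylt1*, which adds that xylose, had 2076 ± 274 and 1761 ± 147 (SD; log2 fold change -0.23, adjusted p = 0.244 in limma). The median log2 fold change of this list was -0.23, and it was -0.04 for the 4 polymerase genes measured of 5, none of which had an unadjusted p under 0.05 (*Ext2* -0.11 and *Extl3* 0.07, adjusted p = 0.696 and 0.726 in limma).

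Sulfotransferases and the epimerase then modify the chain, and 11 of 16 were measured, 5 lower and 6 higher, with a median of 0.07. *Hs3st4*, a 3-O-sulfotransferase of the brain, had 78.0 ± 61.5 normalized counts (SD, n = 7) in control and 283 ± 369 (SD, n = 6) in the PTU group (log2 fold change 1.40, adjusted p = 0.274 in limma), with an SD above the mean in the latter. *Hs3st1* differed by -0.29 on the log2 scale (adjusted p = 0.294 in limma). Of the enzymes that edit or cleave finished chains, 3 of 4 were measured with 1 lower and 2 higher, and none had an unadjusted p under 0.05. *Sulf1*, a sulfatase on the cell surface, had 878 ± 313 and 632 ± 273 normalized counts (SD; log2 fold change -0.50, adjusted p = 0.375 in limma), and the heparanase gene *Hpse* had 47.7 and 58.3 (0.26, adjusted p = 0.759).

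Core proteins are shed or trimmed by metalloproteinases, convertases and enzymes that cut the glypican anchor. Of 9 measured genes of this kind, 7 were lower and 2 higher, 3 and 1 of them with an unadjusted p under 0.05 (8.20 and 8.11% of all rows), and the median was -0.09. *Mmp14*, a membrane bound metalloproteinase, had 2111 ± 232 normalized counts (SD, n = 7) in control and 1740 ± 398 (SD, n = 6) in the PTU group (log2 fold change -0.30, adjusted p = 0.250 in limma), and the sheddase gene *Adam17* differed by -0.24 (adjusted p = 0.265). Among 7 measured partners of the syndecan tail, 3 were lower and 4 higher. *Sdcbp*, which encodes syntenin, had 3779 ± 266 and 3236 ± 429 (SD; log2 fold change -0.23, adjusted p = 0.225 in limma), and *Cask* differed by 0.14 (adjusted p = 0.371).

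The ligands that bind heparan sulfate included 12 measured genes of 16, of which 7 were lower and 5 higher, 2 lower with an unadjusted p under 0.05 (8.20% of all rows). *Mdk*, which encodes midkine, had 2048 ± 262 normalized counts (SD, n = 7) in control and 1560 ± 403 (SD, n = 6) in the PTU group (log2 fold change -0.42, adjusted p = 0.175 in limma). *Fgf1* had 210 ± 76.8 and 126 ± 61.0 (SD; log2 fold change -0.77, adjusted p = 0.286 in limma). All 13 receptors and membrane partners of these proteoglycans were measured, 6 lower and 7 higher, with 2 in each direction at an unadjusted p under 0.05 (8.20% of all rows lower, 8.11% higher). *Fgfr1*, which needs heparan sulfate to bind FGF, had 4943 ± 512 and 3774 ± 976 normalized counts (SD; log2 fold change -0.42, adjusted p = 0.156 in limma). *Robo1*, the axon guidance receptor of the Slits, had 3044 ± 660 and 4380 ± 1342 (SD; log2 fold change 0.50, adjusted p = 0.186 in limma).

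Other proteoglycans served as a comparison. Of 5 measured heparan sulfate proteoglycans outside both families, 4 were lower and 1 higher, none with an unadjusted p under 0.05 (*Srgn* 0.17 and *Cd44* -0.19 on the log2 scale, adjusted p = 0.764 and 0.843 in limma). Of 7 measured chondroitin sulfate proteoglycans, 3 were lower and 4 higher, 3 and 1 of them with an unadjusted p under 0.05 (8.20 and 8.11% of all rows), and the median was 0.00. *Bcan*, which encodes the brain matrix proteoglycan brevican, had 12070 ± 1881 normalized counts (SD, n = 7) in control and 9420 ± 1133 (SD, n = 6) in the PTU group (log2 fold change -0.35, adjusted p = 0.150 in limma). *Cspg5* had 4803 ± 693 and 3844 ± 511 (SD; log2 fold change -0.32, adjusted p = 0.164 in limma). Over all 10 pathway lists, 78 of 94 genes were measured, 44 lower and 34 higher, 15 lower and 5 higher with an unadjusted p under 0.05, beside 8.20 and 8.11% of all rows. None passed the adjusted threshold (0% of all rows), and the groups overlapped in all 78, while 0.596% of all rows had groups that did not overlap.

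**Figure D3:**
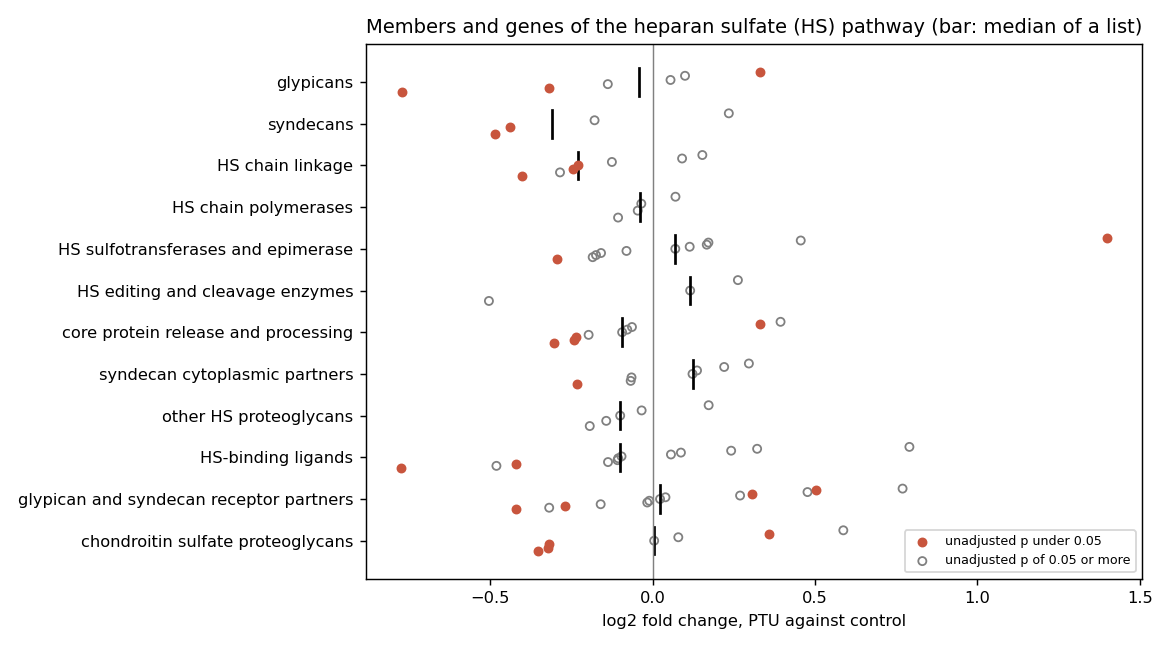
Log2 fold change (PTU exposed against control pups) of each glypican, syndecan and measured gene of 10 pathway lists, 1 circle per gene, with a black bar at the median of the list. Filled red circles have an unadjusted p under 0.05 in limma. The medians lie at -0.04 for glypicans, -0.31 for syndecans and -0.23 for the linkage enzymes, and *Hs3st4* is the farthest point at 1.40.

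Captured tissue holds several cell types, and fewer cells of a type cannot be told apart from less RNA per cell in such bulk samples. Marker scores, the mean of centred log2 values over a list, were therefore set beside the proteoglycans. All 9 radial glia markers were lower in the PTU group, and the score was 0.16 ± 0.12 (SD, n = 7) in control and -0.18 ± 0.20 (SD, n = 6) in the PTU group, a difference of -0.34 (exact permutation p = 0.00175, adjusted p = 0.0175 over 10 lists). Their summed level was 74730 to 104100 normalized counts in control and 61910 to 82330 in PTU exposed pups. With an equal total for each pup the difference was -0.14 (exact permutation test, adjusted p = 0.746). With the 3 highest rows left out of that total it was -0.33 (exact permutation test, adjusted p = 0.0175). The choroid plexus was not among the cells that the study set out to sequence, yet the summed level of its markers was above 0 in every pup. All 10 choroid plexus markers were lower in the PTU group, with a score difference of -0.77 (exact permutation p = 0.0536, adjusted p = 0.107) and summed levels of 50280 to 142300 and 23500 to 100800. *Ttr*, the defining transcript of that epithelium, had 91590 ± 25250 normalized counts (SD, n = 7) in control and 51490 ± 22180 (SD, n = 6) in the PTU group.

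Of 9 neuron markers 8 were higher, with a score difference of 0.32 (exact permutation p = 0.165, adjusted p = 0.275) and summed levels of 54150 to 77200 and 69440 to 113400 normalized counts. Without PTU pup 1 the score difference was 0.13. The astrocyte score, whose 5 genes radial glia express as well, differed by -0.32 (exact permutation p = 0.00466, adjusted p = 0.0233), and by -0.12 (adjusted p = 0.746) with an equal total for each pup. With the 3 highest rows left out of that total, the astrocyte score differed by -0.31 (exact permutation test, adjusted p = 0.0350). With control pup 1, 2, 3 or 5 or PTU pup 6 left out, its adjusted p was 0.0568 to 0.0649 in exact permutation tests. The intermediate progenitor score differed by -0.28 (exact permutation p = 0.0187, adjusted p = 0.0622), by -0.076 with an equal total, and the endothelial score by 0.23 (exact permutation p = 0.0519, adjusted p = 0.107). Differences of the oligodendrocyte lineage (0.19), microglia (0.01), meningeal fibroblast (-0.25) and ependymal (-0.32) scores had exact permutation p-values, adjusted, from 0.275 to 0.903. Control pup 6, the lowest control for *Sdc2* and *Sdc4*, had the lowest choroid plexus score of the control pups, -0.74, and PTU pup 6, the lowest of all for *Sdc4*, had the lowest of all, -1.65. PTU pup 6 was also the lowest of all for the radial glia (-0.45), astrocyte (-0.59) and meningeal fibroblast (-1.6) scores. It was the highest for the endothelial (0.4415) and oligodendrocyte lineage (0.4355) scores. Control pup 6 was also the lowest control for the meningeal fibroblast (-1.425) and endothelial (-0.25) scores. PTU pup 1, the highest for *Sdc3* and the lowest for *Gpc4*, had the highest neuron score, 1.13.

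**Figure D4:**
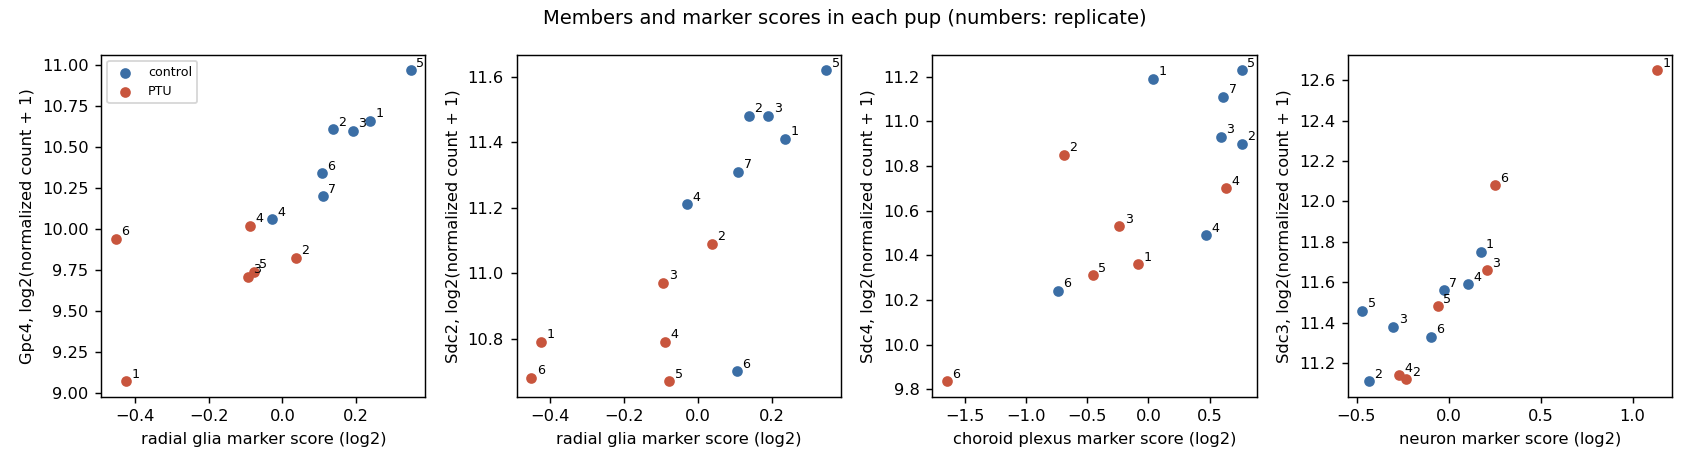
Levels of *Gpc4* and *Sdc2* against the radial glia score, of *Sdc4* against the choroid plexus score and of *Sdc3* against the neuron score, 1 point per pup with its replicate number (blue, control; red, PTU exposed). Levels are log2(normalized count + 1) and scores are mean centred log2 values. PTU pup 1 lies at the upper right for *Sdc3*, at a neuron score of 1.13, and PTU pup 6 at the lower left for *Sdc4*, at a choroid plexus score of -1.65.

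The differences of the proteoglycans were fitted again with a marker score as a covariate. Without a covariate, 1198 lower and 1185 higher rows of all 14606 had an unadjusted p under 0.05 in limma. Beside the choroid plexus score these were 926 and 914, beside the neuron score 830 and 792, and beside the radial glia score 324 and 299. For *Gpc4* the log2 fold change was -0.77 beside the choroid plexus score, 99.1% of that without a covariate. It was -0.57 (74.0%) beside the neuron score and -0.36 (46.0%, unadjusted p = 0.0940 in limma) beside the radial glia score. For *Sdc2* the log2 fold change was -0.32 beside the choroid plexus score, -0.43 beside the neuron score and -0.23 beside the radial glia score. *Sdc4*, at -0.44 without a covariate, was at -0.16 beside the choroid plexus score, at -0.35 beside the neuron score and at 0.12, the opposite sign, beside the radial glia score. *Gpc6* was at -0.25, -0.23 and -0.01 beside the choroid plexus, neuron and radial glia scores, and *Gpc2* at 0.27, 0.32 and 0.12.

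*Sdc3* had a log2 fold change of -0.08 beside the neuron score, with a standard error of 0.10 in place of 0.20, and of -0.39 beside the radial glia score. *Gpc3* had 0.58 beside the choroid plexus score (unadjusted p = 0.0578 in limma) in place of 0.10. Each of these scores had a difference between the groups itself (choroid plexus -0.77, neuron 0.32, radial glia -0.34). A fit with such a score shares the group difference between both terms, and the part that cell composition has in these values was not tested.

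**Figure D5:**
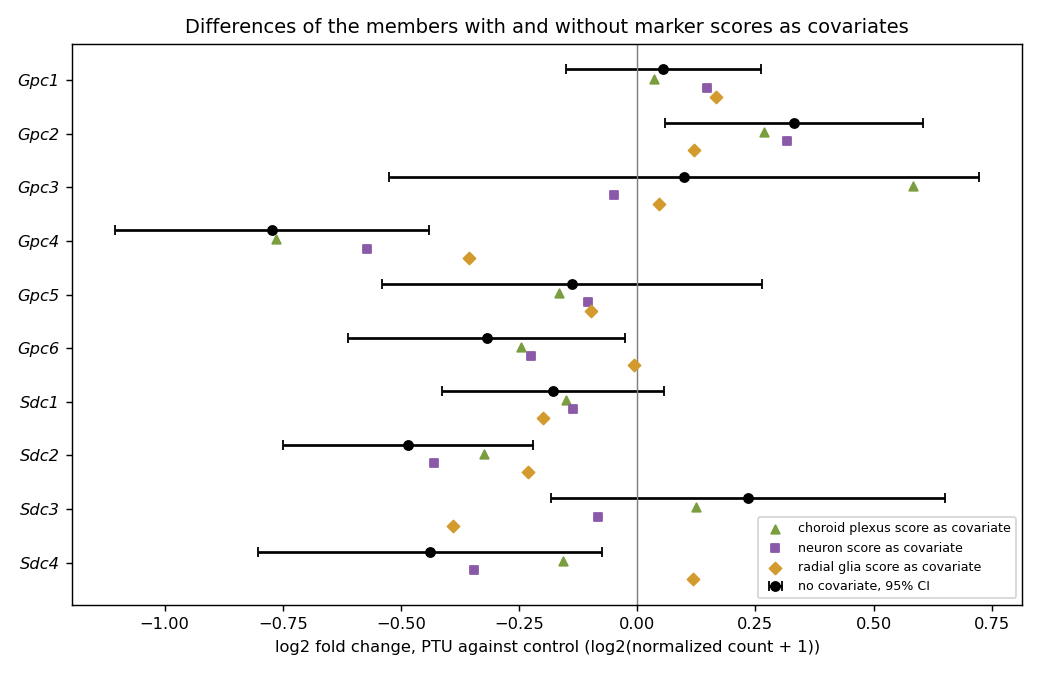
Log2 fold change of the 10 genes without a covariate (black, with the 95% confidence interval) and with the choroid plexus (green triangle), neuron (purple square) or radial glia (orange diamond) marker score as a covariate in limma. *Gpc4* stays below 0 in all 4 fits, between -0.77 and -0.36, and *Sdc4* moves from -0.44 to 0.12 beside the radial glia score.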

How the data were processed

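RNA-Seq values of 13 pups were used. After trimming (Trimmomatic), alignment to mRatBN7.2 (STAR 2.7.8a) and quantification by the Partek E/M model, which shares a read among the transcripts it matches, the authors scaled each pup by median ratio. What they deposited is thus a signal, named normalized counts here, with no negative value. The deposited columns of the authors' DESeq2 comparison (p-values, FDR, ratios, fold changes and group means) were not used. The methods name a RefSeq annotation, whereas 14466 rows carry Ensembl transcript and 250 Ensembl gene identifiers; 1488 of 14716 rows have no gene name. RNA of the captured layer was partly degraded according to the methods.

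The step between low values of each pup (20 to 150) gave the estimated reads. Between 88.2 and 89.7% of these values were whole multiples within 0.02, too few for a count model as the main test. The 14606 rows whose mean reached 10 were compared on log2(normalized count + 1) with limma 3.58.1 in R 4.3.3 (variance trend, two-sided, Benjamini-Hochberg over all rows, threshold 0.05). Single values were compared by exact permutation over 1716 regroupings of the pups (smallest p 0.000583). Python 3.11.15 with scipy 1.17.1, numpy 2.4.6 and pandas 2.3.3 did the rest. The scripts were tested on simulated data.

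The genes, lists and tests were chosen with earlier results of these data known. Named were the 10 genes, the 2 genes of each pathway list with the smallest p, and the 4 genes most like *Gpc4* and *Sdc2*; *Sox2*, *Pax6* and *Ttr* were added as defining markers. Promoter sequences came from RefSeq (GRCr8), a later build than that of the reads, and protein sequences were not used here. Alternatives were other pseudocounts, filters, scalings, weights, variance priors, voom, marker scores as covariates, a block for the replicate number and each pup left out. The radial glia covariate and the alternatives for marker scores were added after seeing the data.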

Additional observations from a re-analysis of the deposited data

Results flagged for a closer look

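Among 74 groups of values checked by Dixon's criterion, with each glypican and syndecan checked both as normalized counts and on the log2 scale, 4 had 1 pup far from the others, where chance alone gives about 1 in 20 groups. The *Gpc4* level of PTU pup 1 was 9.072 on the log2 scale, with a gap of 0.677 of the range of its group beside a critical value of 0.625, and on the scale of normalized counts the gap stayed under that value. Without this pup the log2 fold change of *Gpc4* was -0.64 (adjusted p = 0.134 in limma). The neuron score of PTU pup 1 was 1.134, with a gap of 0.628 of the range of its group beside a critical value of 0.625, and the same pup had the highest *Sdc3*. The meningeal fibroblast score of control pup 6 was -1.425 (gap 0.598 of the range, critical value 0.568). The ependymal score of PTU pup 2 was 0.4393 (gap 0.669 of the range, critical value 0.625).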

How the results depend on the processing

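Of the 10 genes, 0 passed the adjusted threshold in any of the 16 alternatives that kept all pups, and 0 to 1 did when 1 pup was left out (*Sdc2* without control pup 6, *Gpc4* without PTU pup 2). The rows past that threshold numbered 40 with pups weighted by quality, 4 with the choroid plexus covariate, 18 with the replicate number as a block, and 0 to 179 with 1 pup left out (7 without control pup 6, 179 without PTU pup 2). At an unadjusted p under 0.05, 4 genes were lower in the report, beside 8.20% of all rows. With the same total for every pup 1 gene was lower (0.555% of all rows), and without the 3 highest rows in that total 4 were (7.69%). There were 2 with the choroid plexus covariate (6.34%), 2 with the neuron covariate (5.68%) and 0 with the radial glia covariate (2.22%). With 1 pup left out there were 2 to 4 (6.14 to 10.2%), with 2 without PTU pup 6 (6.14%). Higher at that level was 1 gene in the report, beside 1185 of all 14606 rows. There were 0 with the choroid plexus covariate (914 of all rows) and 0 with the radial glia covariate (299 of all rows). With 1 pup left out there were 0 to 1, with 0 without PTU pup 5 or 6 (1094 and 894 of all rows). The cause of these shifts was not tested.

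Over 29 alternatives the log2 fold change ran from 0.014 to 0.26 for *Gpc1*, 0.12 to 0.53 for *Gpc2*, -0.84 to -0.36 for *Gpc4*, -0.41 to -0.0073 for *Gpc6* and -0.59 to -0.23 for *Sdc2*. The sign turned for *Gpc3* with the neuron covariate (-0.050), without control pup 6 (-0.059) and without PTU pup 1 (-0.088, against up to 0.32 with other pups left out), for *Gpc5* (0.063) and *Sdc1* (0.022) with the same total, for *Sdc3* with the neuron (-0.084) and radial glia (-0.39) covariates, and for *Sdc4* with the radial glia covariate (0.12). With 1 pup left out, the difference of the log2 *Sdc2*/*Sdc4* ratio ran from -0.14 to 0.016 that of *Gpc4*/*Gpc3* from -1.11 to -0.56 (without PTU pup 1), of *Sdc1*/*Sdc3* from -0.56 to -0.20 (without PTU pup 1), of *Gpc6*/*Gpc5* from -0.27 (without control pup 6) to -0.040 (without control pup 5) and of *Gpc3*/*Gpc5* from 0.037 (without PTU pup 1) to 0.57 (without PTU pup 2).

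Marker score differences with 1 pup left out ran from -0.98 to -0.53 for choroid plexus (-0.96 without control pup 6, exact permutation test, adjusted p = 0.0433), -0.32 to -0.21 for intermediate progenitors (adjusted p = 0.0217 without control pup 7 and 0.0379 without PTU pup 3), 0.17 to 0.31 for endothelium (adjusted p = 0.0168 without PTU pup 2), -0.37 to -0.24 for astrocytes (adjusted p up to 0.0649), 0.13 (without PTU pup 1) to 0.41 for neurons, 0.10 (without control pup 5) to 0.26 for the oligodendrocyte lineage, -0.44 to -0.23 for ependyma, -0.034 to 0.065 for microglia and -0.51 to 0.040 for meningeal fibroblasts. With the same total, the differences were -0.57 for choroid plexus, -0.14 for radial glia, -0.12 for astrocytes, -0.076 for intermediate progenitors, -0.12 for ependyma, -0.052 for meningeal fibroblasts, 0.52 for neurons, 0.43 for endothelium, 0.39 for the oligodendrocyte lineage and 0.21 for microglia (exact permutation tests, adjusted p from 0.341 to 0.922). With the same total over all but the 3 highest rows, intermediate progenitors gave -0.27, radial glia -0.33 and astrocytes -0.31. Their adjusted p in exact permutation tests was 0.0350, 0.0175 and 0.0350.

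Replicate numbers belong to pups of different litters, and the correlation of deviations of pups with the same number was 0.170, 0.198, -0.070, 0.0069, 0.112 and 0.161 for numbers 1 to 6. It was above 0.1 for 4 of 6 numbers and not for all, and the numbers were not taken as pairs. With the block, *Gpc4* had a log2 fold change of -0.82 (adjusted p = 0.0549) and *Sdc2* of -0.48 (adjusted p = 0.0601) in limma. Partly degraded RNA, rows that share reads among transcripts and values without transcript length limit these measurements, and no protein or heparan sulfate was measured here.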
